A study of Rattus norvegicus with 56 samples.

Results

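The hippocampus was profiled for microRNAs (miRNAs) 3 months (3 m) after traumatic brain injury (TBI), or after sham surgery at the same interval. The 8 libraries described here are those whose labels give 3 m, 4 from TBI rats and 4 from sham-injured controls, out of 56 libraries in all. Each library came from the hippocampus of 1 rat. Injured rats received a fluid percussion injury (FPI), a brief pressure pulse against the exposed dura that gives a mixed focal and diffuse injury, and sham rats were the controls that went through surgery without it. Other rats of the same study were sampled 24 h, 2 weeks (2 w), 1, 2 or 6 m, or 1 year (1 y) after surgery, again with 4 TBI and 4 sham rats at each interval. Strain, sex and age are not given in the sources used here. The question at 3 m was which miRNAs of the injured hippocampus still differed from those of sham controls in this chronic phase.

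miRNAs are short RNAs that are loaded into Argonaute proteins and guide them to messenger RNAs, mostly through the seed, bases 2 to 8 of the mature strand, which lowers translation and stability of the target. Because 1 seed can be shared by several miRNAs, members of a seed family are expected to bind overlapping sets of transcripts. In brain injury the best known miRNAs belong to inflammation. miR-155 and miR-146a are induced by NF-kB signalling, the first favouring and the second restraining it through TRAF6 and IRAK1. miR-142 is made by leukocytes and microglia and miR-223 by myeloid cells, and miR-21 is induced in reactive glia and many injured tissues. The hippocampus also borders the lateral ventricle, whose choroid plexus and ciliated ependyma carry their own miRNAs: miR-204 and miR-211, encoded in the ion channel genes Trpm3 and Trpm1, miR-448, miR-764, miR-1912 and miR-3552, encoded in the serotonin receptor gene Htr2c, and the miR-34b and miR-34c pair of multiciliated cells.

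The mature sequences of the miRNAs that carry the results below are given 5′ to 3′, as RefSeq lists them for the rat assembly GRCr8, which matched 69 of the 79 names looked up. Capitals mark the seed. The inflammation miRNAs are shown first because they include the largest statistic at 3 m, and because miR-146a-5p and miR-146b-5p share a seed and 20 of their first 22 bases (differences G18A and U21C, from the first name to the second, counted from the 5′ end) yet had different values.
miR-146a-5p: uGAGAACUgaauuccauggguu
miR-146b-5p: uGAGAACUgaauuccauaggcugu
miR-142-5p: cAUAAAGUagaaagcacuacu
miR-155-5p: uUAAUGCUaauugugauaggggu
miR-21-5p: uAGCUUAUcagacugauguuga

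The next set is shown because all of its members were high in the same pair of sham rats. miR-204-5p and miR-211-5p share 21 of 22 bases (A17U, first name to second), so a misread or ambiguous read can move between them, and how such reads were assigned is not given in the sources used here. miR-34b-5p and miR-34c-5p share a seed, while miR-448-5p and miR-3552 share only their host gene, Htr2c.
miR-204-5p: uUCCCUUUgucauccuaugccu
miR-211-5p: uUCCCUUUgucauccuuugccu
miR-34b-5p: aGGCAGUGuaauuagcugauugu
miR-34c-5p: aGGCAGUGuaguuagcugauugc
miR-448-5p: aACAUCCUgcauagugcugcca
miR-3552: aGGCUGCAggcccacuucccu

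The last set holds a pair from each of 3 seed families, the miR-15 and miR-16 family, the miR-181 family and the miR-17 family, whose tested members all had the larger mean after TBI and included at least 1 with an unadjusted p under 0.05. Within each pair the seed is the same and the rest differs in part. miR-20a-5p and miR-93-5p share 19 of 23 bases.
miR-15b-5p: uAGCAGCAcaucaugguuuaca
miR-16-5p: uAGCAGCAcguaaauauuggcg
miR-181b-5p: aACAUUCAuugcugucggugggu
miR-181c-5p: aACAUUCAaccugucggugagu
miR-20a-5p: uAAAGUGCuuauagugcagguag
miR-93-5p: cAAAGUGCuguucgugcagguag

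The 8 libraries held between 2083604 and 7239854 counted miRNA reads. Sham libraries ranged from 3665721 to 7239854 and TBI libraries from 2083604 to 4079505, and TBI rats 1, 2 and 3 lay below every sham rat (exact permutation test of the means, two-sided, p = 0.0857, smallest possible 0.0286). Most of the 367 listed miRNAs (309) were 5p strands, only 5 were 3p strands and the names of 53 give none, so each value below is for the named strand only. After the filter on low counts 220 were tested and 147 were not, including 56 with no read in any of the 8 libraries. Values are CPM, reads of a miRNA per 1000000 counted reads, with library totals scaled by the trimmed mean of M values (TMM). The neuronal miR-9a-5p led every library, between 190870 and 222619 CPM, which is 20.3% of all reads on average, followed by miR-26a-5p with 13.3% and miR-99a-5p with 11.4%. Their log2 fold changes were 0.02 ± 0.06 (SE), 0.03 ± 0.06 and 0.08 ± 0.06, each less than 2 SE from 0. Sham rats 3 and 4 stood apart from the other 6 libraries in miRNAs of choroid plexus and ciliated cells, and the results that rest on them are given with and without them.

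Differences between injured and sham hippocampus at 3 m were few and small. In edgeR's quasi-likelihood test 0 of the 220 miRNAs passed an adjusted p of 0.05 (0% called, lowest adjusted p = 0.210), and 13 had an unadjusted p under 0.05, 10 of them with the larger mean after TBI (4.55% of those tested) and 3 with the smaller (1.36%). DESeq2 called 1 miRNA (0.455%), miR-146a-5p, which passed both its Wald test (adjusted p = 0.0170) and its likelihood ratio test (adjusted p = 0.0174). edgeR's likelihood ratio test called 0, with 13 at an unadjusted p under 0.05, 5 higher and 8 lower after TBI. Of all tested miRNAs 145 had a log2 fold change above 0 and 75 below, with a median of 0.06. With DESeq2's size factors in place of TMM, 10 had an unadjusted p under 0.05, 5 in each direction, and with total counts as the scaling there were again 10 higher and 3 lower. Without sham rat 1 there were 4 higher and 10 lower, and in DESeq2's Wald test 5 higher and 13 lower, so the excess of higher over lower miRNAs did not hold across scalings, tests and left-out libraries.

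Separation of the groups gave a similar picture. In 6 miRNAs every TBI library lay above every sham library (2.73% of those tested): miR-146a-5p, miR-142-5p, miR-15b-5p, miR-151-5p, miR-30b-5p and miR-181c-5p. In 2, miR-125a-5p and miR-191a-5p, every TBI library lay below (0.909%). Full separation fixes the exact permutation test, two-sided, at p = 0.0286 for each of these 8, the smallest that 4 rats against 4 allow. The test therefore adds no support to the separation. The same 0.0286 is the share of all splits of 8 rats that would separate a miRNA fully. Changes over 2-fold occurred only downwards, in 7 miRNAs, and in none upwards. All 7 had their largest values in some but not all sham rats and are described further on.

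miR-146a-5p, the NF-kB-induced brake on Toll-like receptor signalling, had the lowest p of all miRNAs. Sham rats 1 to 4 had 666, 593.1, 548 and 643 CPM. TBI rats 1 to 4 had 860, 886, 826 and 753 CPM. All injured rats were above all sham rats, with a gap between 666 and 753 CPM that was wider than the SD within either group (52.9 for sham, 57.8 for TBI, n = 4 each). The mean was 831 CPM after TBI against 612 in sham, a log2 fold change of 0.44 ± 0.09 (1.35-fold), with an adjusted p of 0.210 in edgeR.

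Its near twin miR-146b-5p is encoded elsewhere in the genome and had the larger count in every library, although counts of different miRNAs also carry ligation bias. Sham rats had 3925, 4295, 5087 and 4995 CPM and TBI rats 4123, 4151, 4620 and 3927 CPM. The groups overlapped, with sham rats 3 and 4 highest, and the log2 fold change was -0.12 ± 0.10 (edgeR, adjusted p = 0.640).

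miR-142-5p, made by leukocytes and microglia, also separated the groups. Sham rats had 125, 110, 135 and 116 CPM, and TBI rats had 175, 148, 148 and 151 CPM. TBI rat 1 stood above the other injured rats, which lay close together and still above all sham rats. The log2 fold change was 0.35 ± 0.10 (edgeR, adjusted p = 0.318).

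The remaining inflammation miRNAs overlapped between groups. miR-21-5p had 6777, 7076, 6066 and 7628 CPM in sham rats and 9087, 8470, 7701 and 6803 CPM in TBI rats. TBI rats 1 to 3 were above all sham rats, but TBI rat 4 was among them, and the log2 fold change was 0.22 ± 0.10 (edgeR, adjusted p = 0.547). miR-155-5p, the pro-inflammatory counterpart of miR-146a, was scarce, with 14 to 58 reads in a library.

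In CPM, miR-155-5p measured 5.71, 3.70, 12.9 and 10.5 in sham rats and 11.4, 6.71, 7.85 and 13.7 in TBI rats. Sham rats 3 and 4 were as high as the injured rats while sham rats 1 and 2 were lower, and the log2 fold change was 0.38 ± 0.38 (edgeR, adjusted p = 0.728). Without sham rats 3 and 4, which stand apart for another reason given below, it was 1.00 ± 0.33 with an adjusted p of 0.921. miR-150-5p of lymphocytes had a log2 fold change of 0.16 ± 0.10. miR-223-5p, the less abundant strand of a myeloid miRNA, had only 2 to 5 reads in any library and was not tested.

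Among the 6 tested inflammation miRNAs, 5 had a log2 fold change above 0, 2 had an unadjusted p under 0.05 and 0 passed adjustment in edgeR, with a median of 0.28. Over all tested miRNAs 145 of 220 were above 0, 13 of 220 had an unadjusted p under 0.05 and the median was 0.06. A change in the number of immune or glial cells and a change in miRNA per cell cannot be told apart in whole tissue. Red blood cell miRNAs, which would rise with blood left in the vessels, overlapped. Their summed level ran from 195 to 351 CPM in sham rats and from 203 to 312 CPM in TBI rats, and 0 of 3 had an unadjusted p under 0.05. The part of blood in the miR-142-5p values was not tested.

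**Figure D1:**
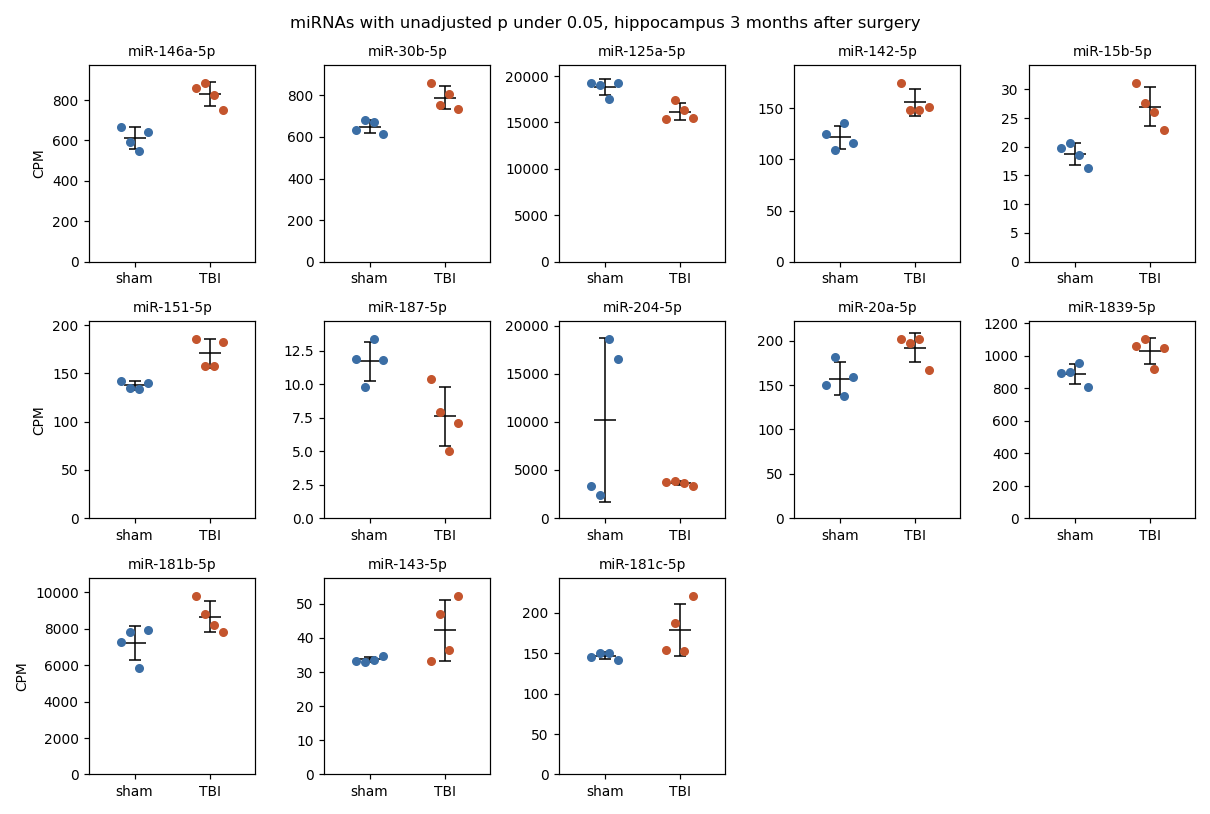
CPM in each library (vertical axis, linear from 0) of the 13 miRNAs with an unadjusted p under 0.05 in edgeR's quasi-likelihood test, sham in blue and TBI in orange, with the mean and SD in black (n = 4 each). miR-146a-5p, miR-30b-5p, miR-142-5p, miR-15b-5p, miR-151-5p and miR-181c-5p separate upwards and miR-125a-5p downwards, whereas miR-204-5p is set by 2 sham libraries, at 16524 and 18609 CPM.

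The other miRNAs with a larger mean after TBI had small changes of similar size, from 0.22 to 0.49 on the log2 scale. miR-15b-5p, a regulator of cyclins and BCL2 encoded with miR-16 in an intron of Smc4, had 19.7, 20.6, 18.5 and 16.3 CPM in sham rats and 31.2, 27.6, 26.1 and 23.0 CPM in TBI rats. The groups did not overlap, and its log2 fold change of 0.49 ± 0.15 was the largest of the 10 (edgeR, adjusted p = 0.318).

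miR-30b-5p had 636, 680, 672 and 614 CPM in sham rats and 861, 755, 807 and 736 CPM in TBI rats. The groups were again separate (0.28 ± 0.08), while the other 4 tested members of the miR-30 family lay between -0.06 and 0.07. miR-151-5p was tightly held in sham rats, at 142, 134, 133 and 141 CPM, and measured 185, 158, 158 and 182 CPM in TBI rats (0.31 ± 0.09).

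For 5 of these 10 miRNAs, namely miR-146a-5p, miR-30b-5p, miR-15b-5p, miR-20a-5p and miR-181b-5p, TBI rat 4 was the lowest of the injured rats. That rat also had the deepest TBI library, 4079505 reads, within the range of the sham libraries. Whether depth had a part in these differences was not tested.

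The miR-181 family shares a seed and is expressed in neurons, glia and lymphocytes. All 4 tested members had a log2 fold change above 0, with a median of 0.24, and 2 had an unadjusted p under 0.05, against 145 and 13 of all 220. These 2 kept an unadjusted p under 0.05 in 7 (miR-181b-5p) and 4 (miR-181c-5p) of 19 alternative analyses. miR-181b-5p had 7270, 7809, 5857 and 7928 CPM in sham rats and 9813, 8778, 8217 and 7836 CPM in TBI rats, a log2 fold change of 0.26 ± 0.11 with an overlap only between sham rat 4 and TBI rat 4. miR-181c-5p was narrow in sham rats, at 145, 151, 150 and 142 CPM, and spread wider after injury, at 154, 187, 153 and 221 CPM (0.30 ± 0.13). TBI rat 4 was the highest for miR-181c-5p and the lowest injured rat for miR-181b-5p, so the members of this family did not rank the injured rats alike.

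The miR-15 and miR-16 seed family also lay on 1 side of 0 in all 6 tested members, with a median of 0.14. miR-16-5p, the partner of miR-15b in the same transcript, had 1074, 1188, 968 and 1090 CPM in sham rats and 1349, 1214, 1282 and 1063 CPM in TBI rats. TBI rats 1 to 3 were above all sham rats and TBI rat 4 was not, and the log2 fold change was 0.18 ± 0.10 (edgeR, adjusted p = 0.547).

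In the miR-17-92 cluster and its paralogues, which promote proliferation, 7 of 14 listed members were tested and 6 had a log2 fold change above 0. miR-20a-5p had 150, 182, 138 and 160 CPM in sham rats and 202, 198, 202 and 167 CPM in TBI rats (0.28 ± 0.12). Only sham rat 2 reached into the TBI range. miR-93-5p and miR-106b-5p, which share the seed of miR-20a-5p and lie together in Mcm7, had log2 fold changes of 0.24 ± 0.12 and 0.24 ± 0.13. Across the 220 miRNAs, 145 were above 0 as well, and a member of these families is read against that.

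miR-143-5p, the less abundant strand of a smooth muscle and pericyte miRNA, had 33.3, 33.0, 33.7 and 34.7 CPM in sham rats and 33.1, 47.0, 36.4 and 52.4 CPM in TBI rats. TBI rats 2 and 4 were high and TBI rat 1 lay within the sham values (0.37 ± 0.15). The other vessel wall miRNAs, miR-145-5p and the endothelial miR-126a-5p, had log2 fold changes of 0.06 ± 0.13 and -0.01 ± 0.07. miR-1839-5p, which RefSeq places in the small Cajal body RNA Scarna15, ranged from 805 to 953 CPM in sham rats and from 918 to 1102 CPM in TBI rats (0.22 ± 0.09).

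The miRNAs with a smaller mean after TBI were fewer. miR-125a-5p, the mammalian homologue of lin-4 that is encoded beside miR-99b and let-7e, had 19278, 19079, 17501 and 19263 CPM in sham rats. TBI rats had 15363, 17470, 16344 and 15530.4 CPM. TBI rat 2 and sham rat 3, the lowest sham rat, lay next to each other, and the groups did not overlap (-0.22 ± 0.06, edgeR adjusted p = 0.318). Its seed partner miR-125b-5p had a log2 fold change of -0.02 ± 0.10.

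miR-187-5p was near the limit of measurement, with 14 to 83 reads in a library. Sham rats had 11.9, 9.77, 13.4 and 11.8 CPM and TBI rats 10.4, 7.90, 4.997 and 7.11 CPM. TBI rat 1 lay above sham rat 2 and the other injured rats lay below all sham rats, for a log2 fold change of -0.67 ± 0.21 (edgeR, adjusted p = 0.318). miR-191a-5p separated the groups with a change of only -0.11 ± 0.05, from 13085 to 13730.3 CPM in sham rats against 12369 to 12545 CPM in TBI rats.

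**Figure D2:**
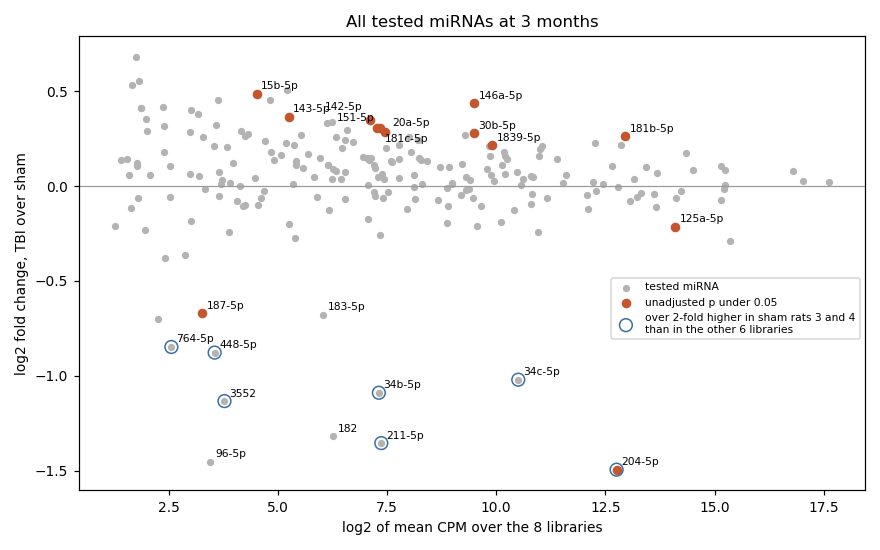
Log2 fold change of TBI over sham (vertical axis) against the log2 of the mean CPM over the 8 libraries (horizontal axis) for the 220 tested miRNAs, with those of unadjusted p under 0.05 in orange and those over 2-fold higher in sham rats 3 and 4 than in the other 6 libraries ringed in blue. The 7 changes below -1 are miR-204-5p, miR-211-5p, miR-34b-5p, miR-34c-5p, miR-3552, miR-96-5p and miR-182, and no miRNA lies above 1.

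Of the 7 changes over 2-fold, 5 came from a pair of sham rats, and those of miR-182 and miR-96-5p did not. miR-204-5p had 3326, 2421, 18609 and 16524 CPM in sham rats 1 to 4 and 3775, 3815, 3610 and 3300 CPM in TBI rats. Injured rats and sham rats 1 and 2 were alike, and sham rats 3 and 4 stood at least 4.33 times above the highest of them. The log2 fold change of -1.50 ± 0.59 (edgeR, adjusted p = 0.547) therefore describes those 2 libraries, and an exact permutation test of the groups gave p = 0.4, two-sided.

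The remaining miRNAs of the choroid plexus followed the same pair of rats. miR-211-5p had 102, 35.6, 424 and 384 CPM in sham rats and 115, 88.4, 108 and 64.5 CPM in TBI rats. Its count was between 1.47% and 3.06% of the miR-204-5p count in every library, 2.28% and 2.33% in sham rats 3 and 4. The part of reads exchanged between these near-identical miRNAs was not tested.

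miR-448-5p, miR-764-5p and miR-3552 share no sequence family with miR-204 and have their own host gene, Htr2c, which is highly expressed in choroid plexus epithelium. miR-448-5p had 6.14, 7.92, 28.3 and 20.3 CPM in sham rats and between 5.53 and 8.92 CPM in TBI rats. miR-3552 had 7.28, 6.34, 38.6 and 26.1 CPM in sham rats and between 6.07 and 11.6 CPM in TBI rats. For miR-764-5p sham rats 3 and 4 had 11.1 and 11.8 CPM and the other 6 libraries 2.97 to 5.22 CPM. miR-3552 was not in the list, and is named here because of its values.

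Of 5 listed choroid plexus miRNAs 4 were tested. All 4 had a log2 fold change below 0 and 1 had an unadjusted p under 0.05, against 75 and 13 of all 220. Their median was -1.12. The 1 listed but not tested, miR-1912-5p, had 1 read in sham rat 4, 1 in TBI rat 2 and 0 in the other 6 libraries. Summed over the list the level was 3438, 2469, 19072 and 16940.5 CPM in sham rats and 3379 to 3913 CPM in TBI rats.

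Of 4 listed ciliated cell miRNAs 3 were tested, 1 with a log2 fold change above 0 and 0 with an unadjusted p under 0.05 in edgeR (median -1.02), and they followed the pair in part. miR-34c-5p had 1131, 629, 3265 and 2748 CPM in sham rats and 1272, 1161, 774 and 644 CPM in TBI rats, and miR-34b-5p, from the same transcript, had 118, 43.0, 398 and 300 CPM in sham rats and 76.3 to 133 CPM in TBI rats. Both were over 2-fold higher in sham rats 3 and 4 than in any other rat. miR-449a-5p, which has the same seed and is also made by multiciliated cells, did not follow, at 9.77 and 13.8 CPM in sham rats 3 and 4 and 10.03 to 15.2 CPM in the other 6 libraries.

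In the 48 libraries of the other intervals miR-204-5p had a median of 1993 CPM and a range of 1170 to 18825 CPM, and that highest library, sham rat 3 at 1 y, was the only one above sham rats 3 and 4 of the 3 m interval. The next highest had 5259 CPM. Without sham rats 3 and 4 at 3 m, miR-204-5p had a log2 fold change of 0.30 ± 0.14 (edgeR, adjusted p = 0.960). That of miR-211-5p was 0.24 ± 0.37 and that of miR-34c-5p 0.06 ± 0.31, all 3 on the other side of 0. That pair was picked for its high miR-204-5p, so leaving it out had to raise these log2 fold changes. Their change of sign is therefore no separate support, and the lower means after TBI were not seen without the pair.

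The pair also touched other results. Without it 0 miRNAs passed an adjusted p of 0.05 in edgeR and 9 had an unadjusted p under 0.05, of which 4 were among the 13: miR-146a-5p (0.36 ± 0.12), miR-142-5p (0.35 ± 0.14), miR-125a-5p (-0.28 ± 0.09) and miR-187-5p (-0.63 ± 0.25). Apart from miR-204-5p, the other 8 of the 13 then had log2 fold changes of 0.16 to 0.36. Leaving out the choroid plexus miRNAs instead, before filtering and scaling, left 12 of the 13 with an unadjusted p under 0.05, the other being miR-204-5p itself. The amount of ventricular tissue in each dissection was not measured, and its part in these values was not tested.

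**Figure D3:**
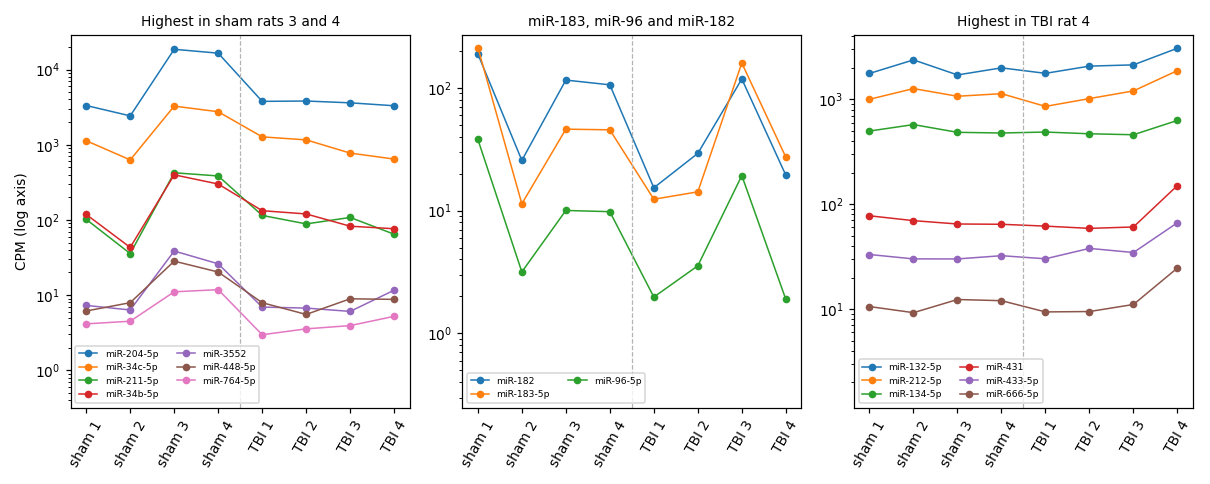
CPM on a log axis in each of the 8 libraries, with sham left and TBI right of the dashed line, for miRNAs that set single libraries apart. The left panel shows miRNAs at their highest in sham rats 3 and 4, the middle panel miR-182, miR-183-5p and miR-96-5p, highest in sham rat 1 and TBI rat 3, and the right panel miRNAs at their highest in TBI rat 4.

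A second set varied strongly between rats within both groups. miR-183, miR-96 and miR-182 are transcribed together and are best known from sensory cells, the retina and the pineal gland. miR-183-5p had 212, 11.4, 46.0 and 45.4 CPM in sham rats and 12.4, 14.2, 159 and 27.3 CPM in TBI rats. miR-182 had 189, 25.6, 115 and 106 CPM in sham rats and 15.3, 29.2, 118 and 19.4 CPM in TBI rats. Both were high in sham rat 1 and TBI rat 3, low in sham rat 2 and TBI rats 1, 2 and 4, and intermediate to high in sham rats 3 and 4.

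miR-96-5p was highest in the same 4 libraries, with 38.0 CPM in sham rat 1, 19.3 CPM in TBI rat 3 and 10.02 and 9.80 CPM in sham rats 3 and 4, but lowest in TBI rat 4, with 1.90 CPM. The summed level of the 3 ran from 40.1 to 439 CPM in sham rats and from 29.7 to 296 CPM in TBI rats. Their log2 fold changes of -0.68 ± 0.91, -1.32 ± 0.67 and -1.46 ± 0.90, for miR-183-5p, miR-182 and miR-96-5p, had wide errors, and none had an unadjusted p under 0.05. Without sham rat 1 they were 0.61, -0.90 and -0.29, and without TBI rat 3 they were -2.13, -2.40 and -2.88. With 1 library left out, miR-182 had an unadjusted p under 0.05 in 2 of 8 fits and miR-96-5p in 1, and the lowest adjusted p of the 3 miRNAs in edgeR was 0.268. Without sham rats 3 and 4 they were -1.26 ± 0.95, -1.44 ± 0.78 and -1.97 ± 0.89. On the scale of centred log2 CPM this cluster and the miR-204 group gave the strongest loadings of the first principal component, which held 39.5% of the variance and placed sham rats 1, 3 and 4 with TBI rat 3 on 1 side and sham rat 2 with the other TBI rats on the other.

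TBI rat 4 had the highest level of all 3 activity miRNAs among the 8 libraries. Its summed neuronal miRNAs, at 242637 CPM, lay within the 236877 to 266600 CPM of the other injured rats, but that sum is mostly miR-9a-5p. miR-9a-5p itself was at its lowest in TBI rat 4 among all 8 libraries. Neuronal miR-129-5p had 10722 CPM in that rat, 8095 to 9698 CPM in the other injured rats and 7434 to 10997 CPM in sham rats. For miR-124-5p that rat had 157 CPM and the other injured rats 134 to 165 CPM. Of the 8 tested neuronal miRNAs 0 were highest there among all 8 libraries. The part of neurons in these values was not tested. miR-132-5p and miR-212-5p, encoded together and induced by CREB during neuronal activity, had 3071 and 1880 CPM in that rat, against 1709 to 2378 CPM and 856 to 1266 CPM in the other 7. Of the 39 tested miRNAs of the imprinted Dlk1-Dio3 cluster 26 were highest there too, 9 in a sham rat and 4 in TBI rats 2 and 3, while the summed level was 30243 CPM in TBI rat 4 and 29414 CPM in sham rat 2. Examples are miR-134-5p with 629 CPM (460 to 574 in the others), miR-431 with 151 CPM (58.8 to 77.6) and miR-433-5p with 66.6 CPM (30.1 to 37.9). How many of all tested miRNAs were highest in TBI rat 4 was not counted, so 26 of 39 is not read as particular to this cluster. TBI rat 4 was highest for 2 of 4 tested miR-181 members and 2 of 9 let-7 members. It was highest for 0 of 6 in the miR-15 and miR-16 family. The same rat was the lowest of the injured rats for miR-146a-5p and miR-21-5p.

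Between the groups none of these miRNAs passed the test. All 3 activity miRNAs, miR-132-5p, miR-212-5p and miR-134-5p, overlapped between TBI and sham, with log2 fold changes of 0.21 ± 0.17, 0.16 ± 0.22 and 0.02 ± 0.12. Of 47 listed miRNAs of the Dlk1-Dio3 cluster 39 were tested. Of these 27 had a log2 fold change above 0 and 12 below, against 145 and 75 of all 220. Their median was 0.03, against 0.06 over all tested miRNAs, and 0 had an unadjusted p under 0.05 in edgeR. miR-299a-3p and miR-299b-3p of this cluster hold identical counts and are 1 measurement.

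The groups overlapped on each of the first 3 principal components of the standardised log2 CPM. The first held 24.3% of the variance, with sham rats between -9.61 and 0.02 and TBI rats between -1.89 and 11.75. TBI rats 1 and 2, the injured rats with the fewest reads, lay at one end and sham rats 3 and 4 at the other, and TBI rats 3 and 4 lay among the sham rats. The second, with 22.7%, set TBI rat 4 apart at -14.8.

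Among the remaining lists neuronal miRNAs had a median log2 fold change of 0.03 over 8 tested members, from -0.24 for miR-153-5p to 0.32 for miR-128-1-5p, with 0 at an unadjusted p under 0.05. Both tested oligodendrocyte miRNAs, miR-219a-5p and miR-338-5p, overlapped between groups. miR-219a-5p had 245, 228, 191 and 259 CPM in sham rats and 383, 261, 282 and 202 CPM in TBI rats. TBI rats 1 to 3 were above all sham rats and TBI rat 4 was below all but sham rat 3 (0.26 ± 0.18).

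All 9 let-7 family members were tested, 7 had a log2 fold change above 0, and they ran from -0.06 to 0.11. In the miR-23, miR-27 and miR-24 clusters 5 of 5 tested members were above 0, with a median of 0.23. Over all tested miRNAs 145 of 220 were above 0, with a median of 0.06. For the miR-26 and miR-29 families the median was 0.03 over 5 members, and for the miR-10, miR-99, miR-100 and miR-125 genes it was 0.08 over 7 members. Outside miR-125a-5p, 0 members of these 4 lists had an unadjusted p under 0.05 in edgeR.

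**Figure D4:**
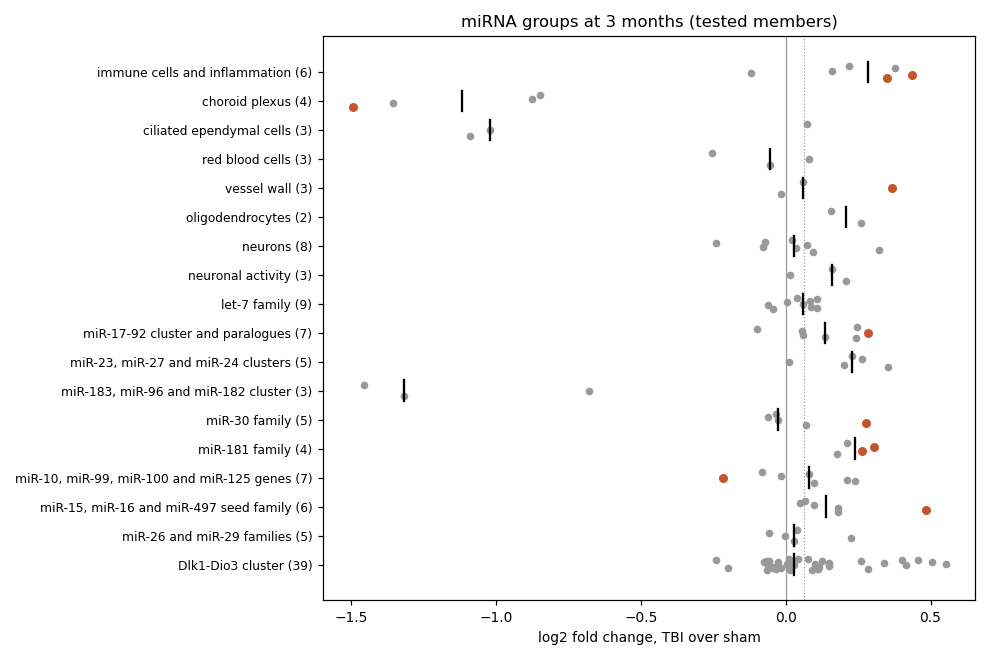
Log2 fold change of TBI over sham (horizontal axis) for the tested members of each miRNA group (rows, number tested in brackets), with the group median as a black bar, members of unadjusted p under 0.05 in orange and the median of all 220 miRNAs, 0.06, as a dotted line. The choroid plexus, ciliated cell and miR-183 rows reach below -1, while every other group lies within 0.6 of 0.

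The other intervals, each with its own TBI and sham rats, gave courses that differed between the inflammation miRNAs. Fitted interval by interval, miR-146a-5p had log2 fold changes of 0.43 ± 0.17 at 24 h and 1.24 ± 0.25 after 2 w. It was highest 1 m after injury with 1.41 ± 0.20, had 0.85 ± 0.21 by 2 m, 0.44 ± 0.09 by 3 m and 0.27 ± 0.12 by 6 m, and ended with -0.06 ± 0.24 after 1 y. Of these only the 1 m value passed adjustment in edgeR (adjusted p = 0.00120). Its median after TBI was 2021 CPM at 1 m and 843 CPM at 3 m, against 726 and 618 CPM in sham rats, with CPM scaled within each interval.

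miR-142-5p had log2 fold changes above 0 from 24 h to 6 m, between 0.35 ± 0.10 at 3 m and 0.79 ± 0.16 at 2 w, none of which passed adjustment in edgeR (lowest adjusted p = 0.0676), and stood at -0.05 ± 0.12 at 1 y. At 3 m its value was the smallest of the first 6 intervals and had the smallest SE of all 7. Whether the size of the difference changed between 3 m and 2 w or 1 m was not tested.

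Direct tests compared the injury effect at 3 m with those at 24 h, 2 m and 6 m in a joint fit of all 56 libraries. Against 24 h, 3 of 244 miRNAs differed (1.23%), and all 3 had a smaller effect at 3 m. miR-155-5p had 48.2 to 72.5 CPM after TBI and 6.99 to 11.3 CPM in sham rats at 24 h, and overlapping groups at 3 m, a difference of -2.48 ± 0.45 (edgeR, adjusted p = 1.81e-04). miR-21-5p had 15696 to 20868 CPM after TBI against 4716 to 7916 CPM in sham rats at 24 h, and its effect was smaller at 3 m by a log2 difference of -1.53 ± 0.27 (edgeR, adjusted p = 1.81e-04).

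miR-223-5p had 0.271 to 8.02 CPM after TBI and 0 to 0.398 CPM in sham rats at 24 h, and 2 to 5 reads in each library of both groups at 3 m. The fitted difference of -3.81 ± 0.96 (edgeR, adjusted p = 0.0193) depends on the prior count and is not an estimate of size. Without sham rats 3 and 4 only miR-21-5p remained called, with a difference of -1.52, while miR-155-5p had -1.71 (edgeR, adjusted p = 0.115) and miR-223-5p a fitted -3.73 (edgeR, adjusted p = 0.160). The effect of miR-146a-5p differed from that at 24 h by -0.03 ± 0.29.

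Against 2 m and against 6 m, 0 of 244 miRNAs differed (0% called in both) in edgeR, with 28 and 9 at an unadjusted p under 0.05. The TBI group at 2 m holds the shallowest library of the series, with 69628 reads, which limits the comparison with 2 m. miR-146a-5p differed from its effect at 2 m by -0.46 ± 0.29 and from that at 6 m by 0.12 ± 0.29. Of the 13 miRNAs with an unadjusted p under 0.05 at 3 m, 10 had the same sign 24 h and 2 w after injury, 8 after 1 m, 5 after 2 m, 11 after 6 m and 8 after 1 y. Over all tested miRNAs the sign was the same for 56.2%, 54.1%, 51.4%, 40.6%, 58.0% and 56.6% at those intervals.

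**Figure D5:**
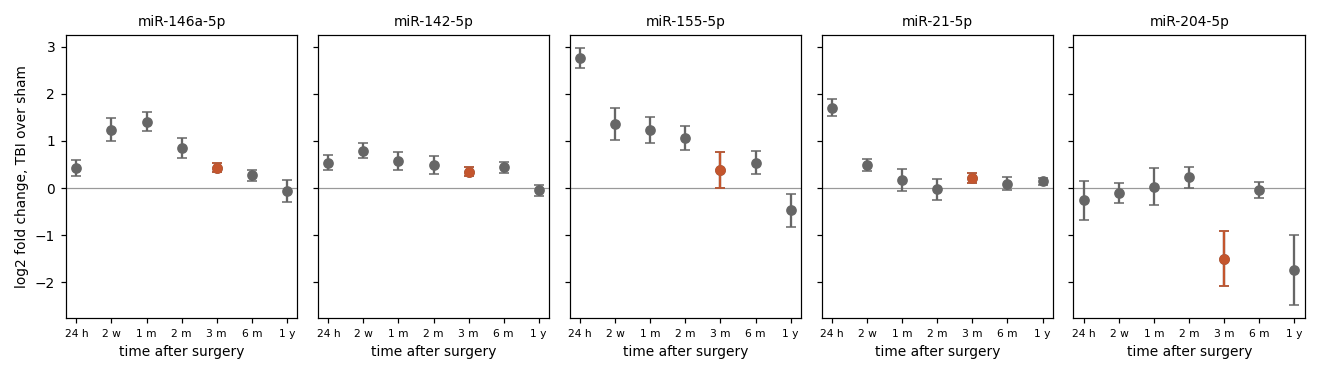
Log2 fold change of TBI over sham with its SE (vertical axis) at each interval after surgery (horizontal axis, evenly spaced, not to scale) for miR-204-5p and 4 inflammation miRNAs, with 3 m in orange and 4 TBI and 4 sham rats at each interval. miR-155-5p and miR-21-5p are highest at 24 h, miR-146a-5p at 1 m, and miR-204-5p lies near 0 except at 3 m and 1 y.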

How the data were processed

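Small RNA of rat hippocampus was size-selected and sequenced on a NextSeq550. The authors used miRDeep2 to trim the reads and to count them on miRBase entries, and what they deposited is 1 table of raw counts. Reads were demultiplexed with bcl2fastq 2.20.0.422 per the submitters' processing notes. No genome build is needed for these counts, and how reads shared by similar miRNAs were divided is not given in the sources used here.

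Counts of the 8 libraries were filtered with filterByExpr, scaled by TMM and tested with the quasi-likelihood test of edgeR 4.0.16 in R 4.3.3, with Benjamini-Hochberg adjustment over the 220 tested miRNAs (threshold 0.05). Likelihood ratio tests and DESeq2 1.42.0 followed the study's methods. Exact permutation tests used log2 CPM with a prior count of 2. The difference between intervals was tested in a joint fit of 14 groups. The scripts were tested on simulated data.

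Groups came from the labelled treatment and time. Library names end in a number whose meaning is not labelled. Sequencing runs are not labelled either, so no run effect could be fitted. No 2 of the 3 m libraries of the same group agreed within counting noise. Named miRNAs were those with an adjusted p under 0.05 in any test or an unadjusted p under 0.05 in the main test, all inflammation and choroid plexus miRNAs, up to 3 of lowest p in each other list, and the 5 most abundant. The comparison, these lists and the rule were chosen with earlier results of these data known. miR-3552, miR-431, miR-666-5p and miR-191a-5p were added after their values were seen. Depth limits rare miRNAs: 3 reads correspond to 0.414 to 1.44 CPM in these libraries.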

Additional observations from a re-analysis of the deposited data

Results flagged for a closer look

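In all, 3 miRNAs had an injury effect at 3 m that differed from the effect at 24 h in the joint fit: miR-155-5p by -2.48, miR-21-5p by -1.53 and miR-223-5p by -3.81 on the log2 scale, all smaller at 3 m.

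Among 164 groups of 4 values (named miRNAs, summed lists and total counts, each in sham and in TBI rats), 11 had 1 library far from the other 3, and 8.2 would be flagged by chance at 1 in 20. TBI rat 3 was high for the cluster of miR-183, miR-96 and miR-182, with 295.9 CPM summed against 29.7 to 48.6 in the other injured rats, and for its members miR-183-5p (159 CPM), miR-182 (118 CPM) and miR-96-5p (19.3 CPM), which share 1 transcript and count as 1 observation. The same rat was high for miR-153-5p (17.5 CPM against 11.9 to 12.6). TBI rat 4 was low for miR-20a-5p (167 CPM against 198 to 202) and high for miR-134-5p (629 CPM against 460 to 488). TBI rat 1 was high for miR-142-5p (175 CPM against 148 to 151). In sham rats, rat 3 was low for miR-125a-5p (17501 CPM against 19079 to 19278), and rat 1 was high for let-7b-5p (6890 CPM against 5944 to 6034) and low for miR-541-5p (1973 CPM against 2206 to 2249). The sham values of miR-204-5p, which fall into a pair of high and a pair of low libraries, cannot be flagged in this way because no 1 library stands alone.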

How the results depend on the processing

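The count of 0 miRNAs with an adjusted p under 0.05 held in edgeR under every scaling, filter and left-out library tried, and was 1 in both DESeq2 tests (miR-146a-5p). With 1 library left out that count was 0 to 0 and the count at an unadjusted p under 0.05 was 8 to 22. It was 22 without sham rat 2, 21 without TBI rat 3 or TBI rat 4, and 8 without TBI rat 2. Of the 13 miRNAs, 8 stayed under 0.05 unadjusted with DESeq2's size factors and 3 in the joint fit of all libraries, where 11 miRNAs were under 0.05, 1 higher and 10 lower after TBI. miR-142-5p and miR-187-5p had an unadjusted p under 0.05 in all 19 alternatives, and miR-146a-5p and miR-125a-5p in 18, the exception being the joint fit, while miR-143-5p, miR-1839-5p and miR-20a-5p were under 0.05 in 5. The 13 kept their direction in every alternative except miR-204-5p, which turned to 0.30 without sham rats 3 and 4, and whose unadjusted p exceeded 0.05 without any 1 of these 2 or of the TBI rats.

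miRNAs with fully separate groups numbered 4 below sham, of 195 tested, when at least 10 reads were required in every library. Without sham rats 3 and 4 they numbered 13 above and 10 below, of 218 tested. Full separation is easier to reach by chance with the 2 sham rats that remain than with 4. These counts therefore do not show a better separation. Against 24 h the count was 2 to 3 with 1 library left out and 1 without that pair, an alternative added after the data were seen. miR-223-5p was lost without sham rat 2, sham rat 3 or TBI rat 4 (adjusted p = 0.0668, 0.0679 and 0.0670), and miR-21-5p was called in all 14 alternatives. Against 2 m and 6 m the counts were 0 to 0. The mean total count of TBI minus sham rats was -2332240 to -1123310 reads with 1 library left out. The first component held 39.5% of the variance when values were centred only. The median of all log2 fold changes stayed between 0.02 and 0.08. No paired analysis was run because the labels pair no TBI rat with a sham rat. Depth limits rare miRNAs such as miR-223-5p, whose 2 to 5 reads in each 3 m library left it untested.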
